A study of Mus musculus with 9 samples.

Results

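The PPAR nuclear receptors, their RXR partners and the PGC-1 coactivators were followed through adipocyte differentiation, as 9 genes chosen by name out of 32285 gene identifiers: Pparg, Ppara and Ppard; Rxra, Rxrb and Rxrg; and Ppargc1a, Ppargc1b and Pprc1. RNAseq was done on 9 libraries of wild-type (WT) mouse SVF cells, the stromal vascular fraction of subcutaneous white adipose tissue of neonatal mice, which the labels call primary adipocytes. There were 3 libraries of undifferentiated cells, 3 of cells taken through 6 days of differentiation in DMSO as vehicle, and 3 of cells given 25 µM mizoribine (MIZ) over the same 6 days, an inhibitor of IMPDH, the enzyme of guanine nucleotide synthesis. The differentiated groups shared an induction medium with insulin, dexamethasone and IBMX, and then a maintenance medium with insulin, triiodothyronine and the PPARγ agonists troglitazone and rosiglitazone, so vehicle and MIZ cells both received ligands of PPARγ and undifferentiated cells did not. By the methods, SVF cells from individual animals were plated separately, but the labels tie no library to an animal, so the p-values measure the spread between these libraries.

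PPARs are transcription factors that bind fatty acids and their derivatives. They sit on DNA as heterodimers with an RXR, on a direct repeat of the half-site AGGTCA, and recruit coactivators of the PGC-1 family, which also serve the ERR and NRF factors on genes of the mitochondria. PPARγ is the master regulator of adipogenesis, PPARα is known for fatty acid oxidation in liver and brown fat, and PPARδ is broadly expressed.

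The libraries held 28760721 to 55288455 counts, and none stood apart from its group. Mitochondrially encoded genes took 0.837% to 0.891% of the counts in undifferentiated, 3.82% to 5.002% in vehicle and 0.686% to 0.836% in MIZ libraries, and in a fit without those genes every member kept its direction and its call. All 9 genes had at least 5 counts in at least 3 libraries, the filter for testing, which 17173 genes passed. Levels are given as CPM (library-scaled counts after TMM normalization) and fold changes as log2 values from edgeR's quasi-likelihood test, adjusted over all genes tested, with a threshold of 0.05. By its markers the label of primary adipocytes fits the vehicle libraries best. The 7 adipocyte markers summed to 43.3 to 44.3 CPM in undifferentiated cells, to 16200 to 16800 with vehicle and to 1210 to 1540 with MIZ, with Lep at 0 counts in undifferentiated and MIZ cells and Cidec at 0 in undifferentiated cells. Sums of other markers moved with the groups as well, with 8 macrophage markers at 4270 to 4400, 511 to 925 and 975 to 1340 CPM in the same order, 6 smooth muscle markers at 727 to 863, 88.3 to 122 and 6630 to 8700 CPM, and 8 preadipocyte and stromal markers at 14100 to 15400, 3420 to 4200 and 5560 to 7310 CPM. Single genes weighed heavily, as Lyz2 (2420, 193 and 481 CPM) among macrophage and Col1a1 (13900, 3400 and 5700 CPM) among stromal markers. Between MIZ and vehicle, 4 macrophage markers were higher and 4 did not pass. Of the stromal markers, 3 were higher, 1 was lower and 4 did not pass (35.8% of all genes were higher and 35.0% lower). Adgre1 was highest with MIZ (230, 191 and 399 CPM), and Icam1 rose on differentiation (71.0 to 148 CPM). Endothelial markers were at 81.0 to 103, 9.9 to 11.4 and 5.89 to 6.21 CPM and skeletal muscle markers at 4.68 to 5.26, 1.85 to 2.36 and 36.9 to 63.2 CPM. The skeletal muscle sum was mostly Acta1 (3.44, 1.48 and 46.6 CPM). With MIZ it was the only 1 of the 7 markers to reach a mean of 1 CPM, and Myod1 and Myog had 0 counts. Schwann cell and mesothelial markers stayed at or under 37.6 CPM, and lymphocyte and epithelial markers at or under 0.188 CPM. Their part in the results was not tested, and in bulk RNA fewer cells of a type and less RNA per cell cannot be told apart.

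Sequence upstream of the members' starts is shown for 3 of them, to set side by side starts of different CpG content. The 250 bases before a RefSeq start (GRCm38.p6) are printed 5′ to 3′ on the plus strand, with each CpG dinucleotide in capitals, for windows in which GENCODE M21 annotates no exon. Rxra moved least between MIZ and vehicle and has a CpG-rich window at its upstream RefSeq start, though not at its downstream one. Rxrg and the start of the long Pparg transcript, both of genes that rose strongly on differentiation, have windows with fewer CpGs.
Rxra, chr2:27676951-27677200: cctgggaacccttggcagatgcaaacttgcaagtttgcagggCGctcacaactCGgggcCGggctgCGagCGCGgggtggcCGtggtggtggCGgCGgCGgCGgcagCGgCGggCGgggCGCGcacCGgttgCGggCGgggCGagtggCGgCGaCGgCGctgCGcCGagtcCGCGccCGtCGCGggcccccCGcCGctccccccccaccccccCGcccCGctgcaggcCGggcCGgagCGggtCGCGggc
Rxrg, chr1:167598112-167598361: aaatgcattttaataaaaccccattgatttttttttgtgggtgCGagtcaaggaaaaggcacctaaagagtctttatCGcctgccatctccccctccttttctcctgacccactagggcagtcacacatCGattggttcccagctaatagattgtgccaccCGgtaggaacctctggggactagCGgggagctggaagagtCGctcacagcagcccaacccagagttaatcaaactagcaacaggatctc
Pparg, start of the 505-codon transcript, chr6:115421816-115422065: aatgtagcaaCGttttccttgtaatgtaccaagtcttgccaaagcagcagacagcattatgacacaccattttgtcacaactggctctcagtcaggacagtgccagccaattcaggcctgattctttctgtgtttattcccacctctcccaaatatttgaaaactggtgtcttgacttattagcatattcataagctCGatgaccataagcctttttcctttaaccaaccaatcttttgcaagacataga
The Rxra window holds 40 CpGs, an observed to expected ratio of 0.976, the Rxrg window 6 (0.401) and this Pparg window 2 (0.204), where the median of 32851 mouse windows was 0.373. Pparg has further RefSeq starts 60922 and 59717 bases upstream, at 115361144 and 115362349, with ratios of 0.896 and 0.505, and GENCODE starts transcripts of 475 codons near both. Rxra has a further RefSeq start 32091 bases downstream, at 27709292. Its window, also without annotated exons, holds 1 CpG, a ratio of 0.053. The 8 genes are not ordered by CpG content as they are by the size of their change. Ppara, which fell most with MIZ, has a CpG-rich window (0.763), as have Ppard (0.772) and Rxrb (1.036), which changed little, and the window at the distal start of Ppargc1a is near the median (0.347). Pprc1, the member that moved least on differentiation, stands at 0.633. RefSeq windows were matched for 8 of the 9 genes, all but Ppargc1b. The half-site AGGTCA, searched on both strands, is present in 14.0% of all such windows. Among the printed windows it is in none, and it lies 28 bases before the Pparg start at 115361144 and 9 bases before the one at 115362349, and it is also found at second starts of Rxra and Rxrg and at the start of Pprc1. No member window holds a direct repeat of AGGTCA with 1 base of any kind in between, the DR1 element of PPAR and RXR, which 0.0335% of all windows do, and that says nothing of sites outside these windows.

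All 3 PPAR genes rose on differentiation with vehicle and were lower with MIZ. Pparg, at chr6:115360951-115490399, stood at 8.02, 7.35 and 8.99 CPM in the undifferentiated libraries, at 163, 176 and 183 with vehicle and at 19.2, 21 and 24.5 with MIZ. The groups did not overlap, as for 72.8% of all genes between MIZ and vehicle, 80.7% between vehicle and undifferentiated and 74.4% between MIZ and undifferentiated cells, and the MIZ libraries lay far nearer to the undifferentiated than to the vehicle libraries. Pparg was 8.08-fold lower with MIZ than with vehicle (log2 fold change -3.01, standard error 0.0939, adjusted p = 2.31e-10, edgeR), and a gap to undifferentiated cells remained (log2 fold change 1.40, adjusted p = 3.4e-07, edgeR). In these cells MIZ left 12.4% of the vehicle level, with 11.1% to 14.1% in the separate libraries.
Ppara, at chr15:85734983-85802819, was low in undifferentiated cells, with 0.636, 0.562 and 0.905 CPM from 28, 25 and 53 counts. It rose to 73.4, 74.8 and 68.3 CPM with vehicle and stood at 1.70, 1.52 and 1.92 CPM with MIZ, no more than 75 counts in a library. The vehicle libraries were far above both other groups, which did not overlap each other either. The fall with MIZ was 42.1-fold (log2 fold change -5.40, standard error 0.111, adjusted p = 6.16e-12, edgeR), and 0.501% of all genes tested had a lower log2 fold change in that comparison. Ppara thus had the largest fall of the 9 genes, leaving 2.37% of the vehicle level.
Ppard, at chr17:28232700-28301474, differed far less between the groups. Its level was 42.2, 41.4 and 42.0 CPM before differentiation, 84.8, 91.2 and 92.1 CPM in the vehicle libraries and 58.6, 55.3 and 54.6 CPM in the MIZ libraries. The 3 groups were again separate, with MIZ in between. Ppard was 2.13-fold higher with vehicle than in undifferentiated cells (log2 fold change 1.09, standard error 0.048) and 1.59-fold lower with MIZ than with vehicle (log2 fold change -0.67, standard error 0.0476, adjusted p = 1.32e-07, edgeR).

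**Figure D1:**
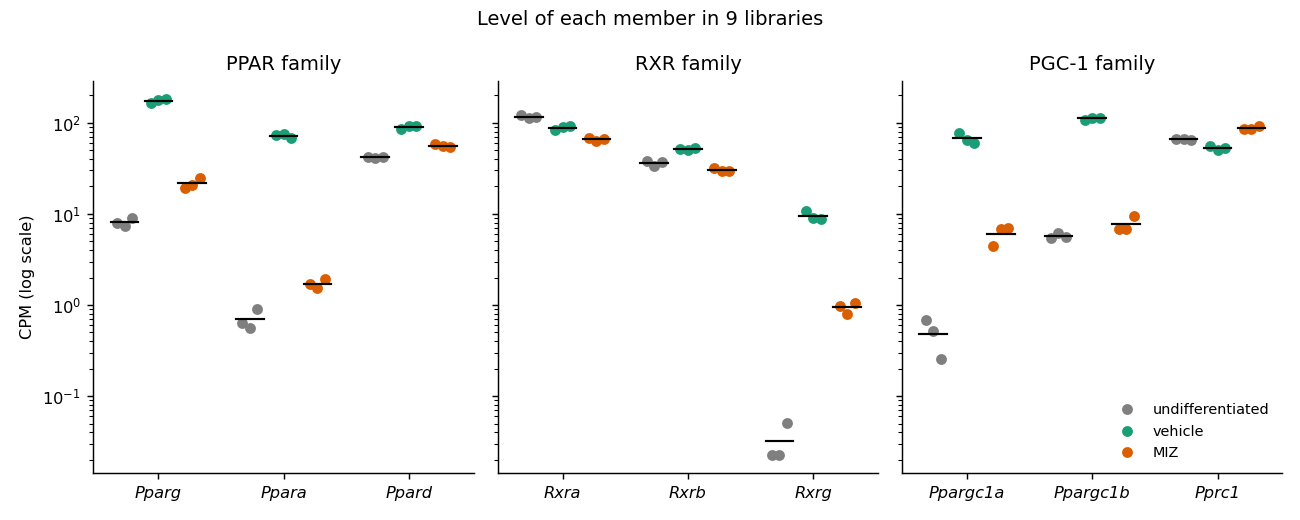
Level of each of the 9 genes in CPM on a log axis, with 1 point per library and a black line at the mean of the 3 libraries of a group. Pparg, Ppara, Rxrg, Ppargc1a and Ppargc1b stand far higher with vehicle than in both other groups (8.08-fold above MIZ for Pparg), while Ppard, Rxra, Rxrb and Pprc1 stay between 29.4 and 122 CPM in all 9 libraries.

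Of the RXR genes, the heterodimer partners, the broadly expressed Rxra and Rxrb moved little and Rxrg moved strongly. Rxra, at chr2:27676440-27762957, started at 122, 113 and 116 CPM, went to 83.4, 90.6 and 91.6 in vehicle libraries and to 68.3, 62.7 and 65.9 in MIZ libraries. It was highest before differentiation and lowest with MIZ in every library. Against vehicle it was 1.35-fold lower (log2 fold change -0.43, standard error 0.0529, adjusted p = 1.61e-05, edgeR), and against undifferentiated cells its log2 fold change was -0.83 (standard error 0.0528).
Rxrb, at chr17:34031812-34038399, had undifferentiated levels of 37.9, 33.2 and 37.4 CPM, vehicle levels of 50.9, 50.3 and 52.6 and MIZ levels of 32.0, 29.4 and 29.4. MIZ cells thus lay below both other groups, and the log2 fold change was -0.76 against vehicle (standard error 0.0611, adjusted p = 4.04e-07, edgeR) and -0.26 against undifferentiated cells (standard error 0.061, adjusted p = 0.00303, edgeR). Rxra and Rxrb were the members that MIZ left below the undifferentiated level.
Rxrg, at chr1:167598384-167639623, the RXR best known from muscle and brain, was nearly absent before differentiation, with 1, 1 and 3 counts. With vehicle it had 289, 422 and 393 counts, or 10.8, 9.06 and 8.74 CPM, and with MIZ 43, 29 and 36 counts, or 0.974, 0.787 and 1.06 CPM. The pooled vehicle level was 275 times the undifferentiated level, with an exact 95% interval of 117 to 848 that covers counting error only, and the pooled MIZ level 27.7 times (11.5 to 87.0). MIZ lowered Rxrg 10.1-fold against vehicle (log2 fold change -3.33, standard error 0.159, adjusted p = 3.82e-09, edgeR). Even with vehicle it was the lowest of the 9 genes per kilobase of exon.

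The coactivators Ppargc1a and Ppargc1b, which drive mitochondrial biogenesis and oxidative genes, rose with vehicle and were low with MIZ, whereas Pprc1 went the other way. Ppargc1a, at chr5:51454250-51567726, had levels of 0.682, 0.517 and 0.256 CPM before differentiation, of 76.8, 64.8 and 60.6 in vehicle libraries and of 4.48, 6.84 and 6.92 in MIZ libraries. Its libraries varied more within groups than those of most members, but the groups did not overlap. It was 11.2-fold lower with MIZ than with vehicle (log2 fold change -3.48, standard error 0.195, adjusted p = 2.66e-07, edgeR) and remained above undifferentiated cells (log2 fold change 3.69, standard error 0.305).
Ppargc1b, at chr18:61298136-61400431, stood at 5.45, 6.22 and 5.58 CPM in undifferentiated libraries, 108, 113 and 114 in vehicle libraries and 6.82, 6.79 and 9.55 in MIZ libraries. MIZ cells were thus almost at the undifferentiated level, and the fall against vehicle was 14.5-fold (log2 fold change -3.86, standard error 0.113, adjusted p = 1.88e-10, edgeR). The remaining log2 difference from undifferentiated cells was 0.42 (standard error 0.121, adjusted p = 0.0107, edgeR). MIZ replicate 3 carried a large part of it, and without that library it was 0.24 (adjusted p = 0.0165, edgeR).
Pprc1, at chr19:46044886-46072915, encodes the family member known for its response to serum and growth signals. Before differentiation it was at 65.6, 66.5 and 64.6 CPM, under vehicle at 55.2, 50.7 and 53.5 and under MIZ at 84.9, 84.7 and 92.4. MIZ libraries were the highest and vehicle libraries the lowest, with a log2 fold change of 0.72 between them (standard error 0.0501, adjusted p = 1.14e-07, edgeR). Exons of Ldb1, on the opposite strand, cover 177 bp or 2.8% of the exons of Pprc1, and the strand setting of the counting is not given in the sources used here. Ldb1 also rose with MIZ against vehicle, with a log2 fold change of 0.38 (adjusted p = 0.00317, edgeR). On differentiation with vehicle both genes fell, with log2 fold changes of -1.15 for Ldb1 and -0.3 for Pprc1. With MIZ against undifferentiated cells, Ldb1 fell by 0.77 on the log2 scale and Pprc1 rose by 0.41.

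**Figure D2:**
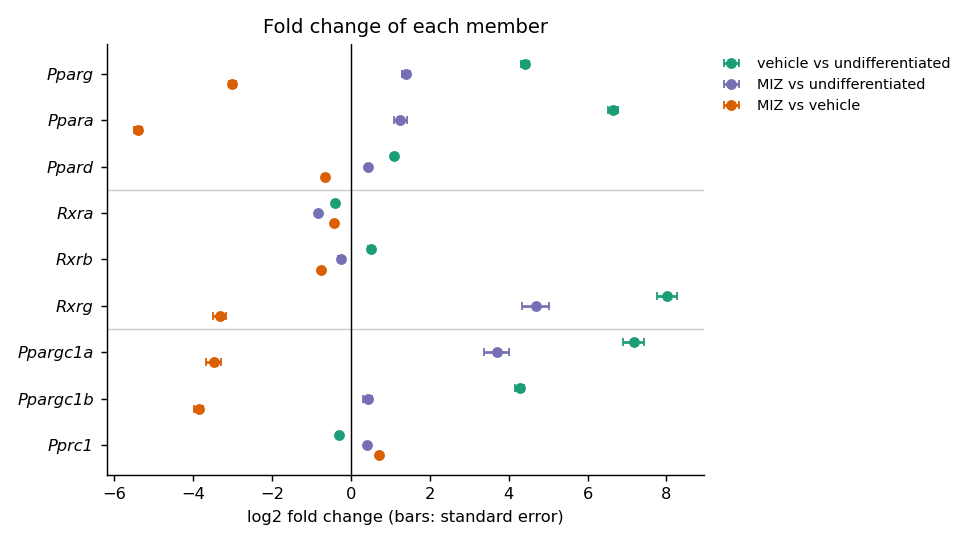
Log2 fold change of each gene in the 3 comparisons (points) with edgeR's standard error (bars), grouped from top to bottom as PPAR, RXR and PGC-1 genes. Between MIZ and vehicle the values run from -5.40 for Ppara to 0.72 for Pprc1, the 1 member to the right of 0.

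Between MIZ and vehicle, 8 of the 9 genes were lower and 1 was higher, where 35.0% of all genes tested were lower and 35.8% higher (70.8% passed the test). Between vehicle and undifferentiated cells 7 rose and 2 fell (77.6% of all genes passed, 36.1% higher and 41.5% lower), and between MIZ and undifferentiated cells 7 were higher and 2 lower (66.9% passed, 33.7% higher and 33.2% lower). Since most genes passed in each comparison, that all 9 did says little of them, and their sizes are set beside those of all genes. The median log2 fold change of the 9 genes was -3.01 between MIZ and vehicle against 0.02 over all genes, and 4.28 against -0.08 between vehicle and undifferentiated cells. Both comparisons use the same vehicle libraries. In size, Ppara, Ppargc1b, Ppargc1a, Rxrg and Pparg were among the largest changes, and 0.996% to 6.17% of all genes changed more between MIZ and vehicle. Ppard, Rxra, Rxrb and Pprc1 were ordinary, and 44.7% to 63.0% of genes changed more.

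Summed per kilobase of exon, the PPAR genes went up and down while the RXR genes changed little on differentiation. The PPAR sum began at 8.51 ± 0.362 CPM per kb (SD, n = 3 libraries), reached 89.6 ± 3.43 in vehicle cells and was 15.2 ± 0.721 in MIZ cells. The RXR sum was 30.5 ± 1.45, 33.3 ± 0.515 and 20.1 ± 0.885 CPM per kb in the same order, and the vehicle libraries (32.8 to 33.8) lay just above the undifferentiated ones (29.0 to 31.9). Hence the ratio of summed PPAR to summed RXR transcripts was 0.267 to 0.290 before differentiation, 2.61 to 2.75 with vehicle and 0.703 to 0.806 with MIZ. PPAR transcripts outnumbered RXR transcripts with vehicle alone. This held with coding length (0.354, 2.28 and 0.869) or no length (0.332, 2.25 and 0.821) in place of exon length. The PGC-1 sum was 12.0 ± 0.255, 46.6 ± 0.664 and 16.8 ± 1.22 CPM per kb. The sums were examined after the data were seen and were not tested.

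**Figure D3:**
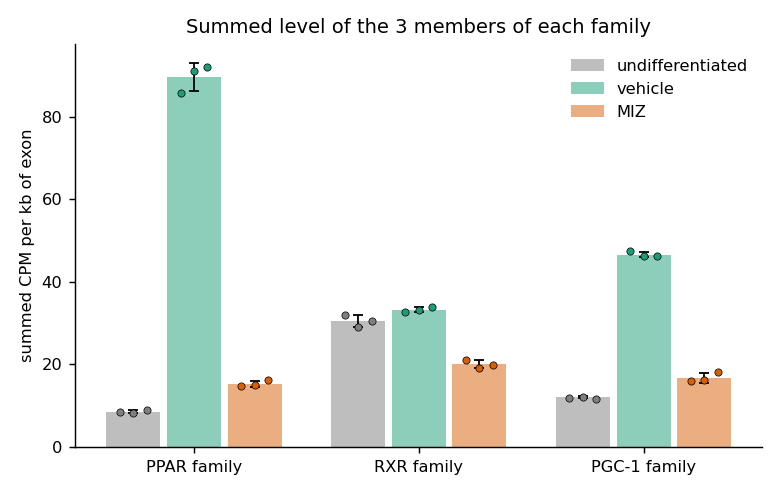
Summed level of the 3 genes of each family in CPM per kb of exon. Bars are means of 3 libraries, error bars their SD and points the libraries. The PPAR sum with vehicle (85.7 to 92.0) stands above every other bar, and the RXR sum differs least between undifferentiated and vehicle cells.

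By the share of each gene in its own family, in CPM per kb, Ppard and Pprc1 led the PPAR and PGC-1 families in undifferentiated cells, and Pparg and Ppargc1b led them with vehicle. The counts are per gene, so these are shares of paralogs, and the transcripts of a gene, such as the Pparg transcripts of 475 and 505 codons, cannot be told apart. Ppard made up 66.1%, 67.7% and 63.0% of PPAR transcripts in the undifferentiated libraries, 13.2%, 13.3% and 13.3% with vehicle and 52.9%, 49.4% and 45.3% with MIZ. Pparg took 32.3% ± 1.91, 65.7% ± 1.43 and 47.9% ± 3.74 of the family (SD, n = 3), and Ppara 2.14% ± 0.459, 21% ± 1.5 and 2.93% ± 0.236. Pparg and Ppard were therefore at similar shares with MIZ, while with vehicle Pparg led. With coding length in place of exon length the MIZ shares were 24.5% for Pparg and 73.4% for Ppard, since the exons of Ppard hold 7514 bp and those of Pparg 2953 bp. In the RXR family, Rxra fell from 70.1% ± 0.965 to 48.7% ± 1.85 on differentiation and made up 59.9% ± 0.501 with MIZ. Rxrg reached 12.5% ± 1.66 with vehicle, from 0.0458% ± 0.0233 before and 2.04% ± 0.271 with MIZ. Rxrb held 38.8% ± 0.562 with vehicle and 38.0% ± 0.746 with MIZ, groups that overlapped (difference -0.757 percentage points, exact two-sided permutation p = 0.3). With coding length or no length that difference was -2.92 or -3.06 percentage points.
The PGC-1 family turned over most. Pprc1 made up 87.7%, 86.6% and 87.7% of it in undifferentiated cells, 18.5%, 17.5% and 18.4% with vehicle and 85.0%, 83.1% and 81.0% with MIZ. Ppargc1b was the leading member with vehicle, at 60.0% ± 2.69, and had 12.1% ± 0.652 before differentiation and 11.5% ± 1.49 with MIZ, groups that overlapped (difference -0.581 percentage points, exact two-sided permutation p = 0.6). Ppargc1a made up 0.614% ± 0.269, 21.9% ± 2.43 and 5.49% ± 1.09. In the 25 other comparisons of shares the groups did not overlap, and each gave an exact two-sided permutation p = 0.1, the smallest that 3 against 3 libraries allow (0.108 when adjusted over all 27).

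**Figure D4:**
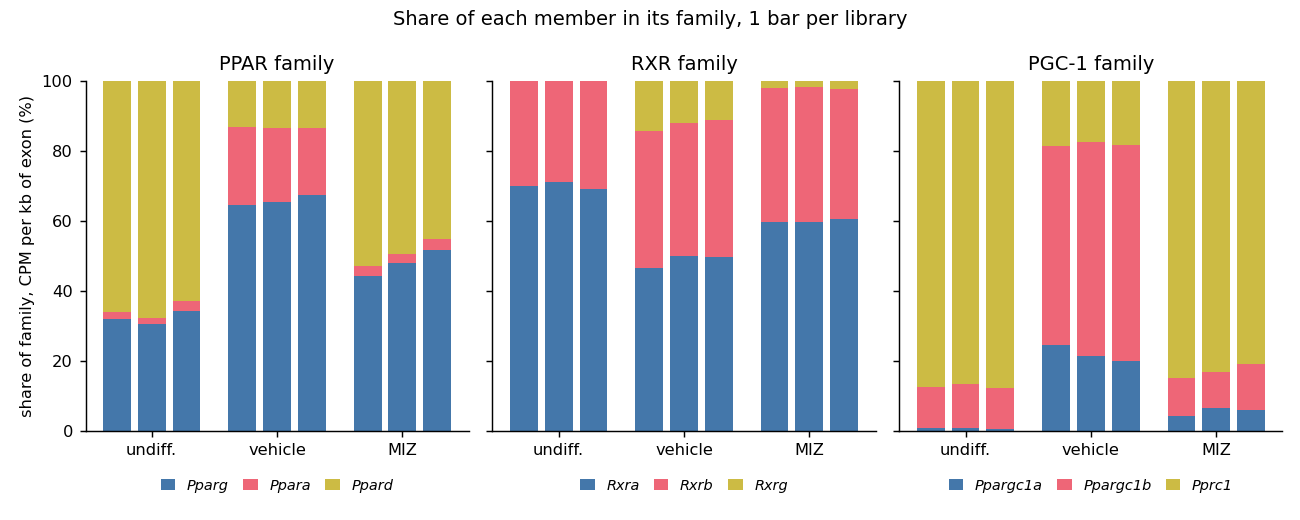
Share of each gene in its family, in percent of summed CPM per kb of exon, with 1 stacked bar for each library. Ppard and Pprc1 hold most of their families in undifferentiated cells, Pparg and Ppargc1b with vehicle, and the MIZ bars of the PGC-1 family resemble the undifferentiated ones (Pprc1 83.0% and 87.3%).

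By level per kilobase of exon, the order of the 9 genes changed with the group. This order rests on exon length and was not worked out with coding length. Undifferentiated cells had Rxra first at 21.4 CPM per kb, then Pprc1 (10.4), Rxrb (9.10), Ppard (5.57), Pparg (2.75), Ppargc1b (1.44), Ppara (0.183), Ppargc1a (0.0736) and Rxrg (0.014), with no overlap between neighbours. With vehicle, Pparg led at 58.9 CPM per kb, followed by Ppargc1b (28.0), Ppara (18.8), Rxra (16.2), Rxrb (12.9), Ppard (11.9), Ppargc1a (10.2), Pprc1 (8.46) and Rxrg (4.16), and of these neighbours Ppard and Ppargc1a overlapped. With MIZ, Pprc1 came first at 13.9 CPM per kb and Rxra second at 12.0. Per kilobase of exon, the libraries of Rxrb (7.62), Ppard (7.48) and Pparg (7.31) overlapped, as did those of Ppara (0.447) and Rxrg (0.41) at the end. In CPM with no length they did not. Ppard was at 54.6 to 58.6, Rxrb at 29.4 to 32.0 and Pparg at 19.2 to 24.5 CPM with MIZ. Ppara was at 1.52 to 1.92 and Rxrg at 0.787 to 1.06 CPM.

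Of a list of 19 genes that PPARγ activates in adipocytes, all 19 were lower with MIZ than with vehicle, as 35.0% of all genes were (median log2 fold change -3.27, against 0.02 over all genes). All 19 were higher with vehicle than in undifferentiated cells (median 9.60), as 36.1% of all genes were. Pck1, which encodes the gluconeogenic enzyme PEPCK that serves glyceride synthesis in fat, rose from 0.130 ± 0.00934 to 103 ± 5.33 CPM on differentiation and was at 0.605 ± 0.233 under MIZ (log2 fold change -7.45 against vehicle). Cidea and Ucp1, a lipid droplet protein and the uncoupling protein of thermogenic fat, stood at 119 ± 11.2 and 60.3 ± 2.37 CPM with vehicle, and the 3 MIZ libraries together held 1 and 2 counts of them. The pooled vehicle level of Ucp1 was 3440 times the MIZ level, with an exact 95% counting interval of 953 to 28500, and that of Cidea 13800 times (2480 to 546000). Of the 19 genes, 17 remained higher with MIZ than in undifferentiated cells, as 33.7% of all genes were, and 2 did not pass the test. The list was chosen with earlier results of these data known. Fabp4, Adipoq, Plin1, Cidec, Lipe and Pnpla2 on it are also among the adipocyte markers above. Its counts are therefore no test of PPARγ activity.
Genes that PPARα and PPARδ activate in other tissues, mostly of fatty acid oxidation but also such as Vldlr, Plin2 and Fgf21, were mostly lower as well. Of 22 tested of 23, 19 were lower and 2 higher with MIZ than with vehicle (median log2 fold change -2.42), where 35.0% and 35.8% of all genes were. On differentiation 20 had risen, as had 36.1% of all genes. Cpt1b, the muscle and brown fat form of the carnitine palmitoyltransferase of the mitochondrial outer membrane, went from 1.57 ± 0.0599 to 321 ± 25.4 CPM on differentiation and was at 10.4 ± 3.21 with MIZ. Pdk4, which restrains pyruvate oxidation, and Acadm, the medium-chain acyl-CoA dehydrogenase, had log2 fold changes of -3.50 and -3.39 between MIZ and vehicle. Among the exceptions was Cpt1a, the liver form of the same transferase. Cpt1a went from 108 ± 5.04 down to 43.2 ± 1.07 CPM on differentiation and was at 134 ± 13.6 under MIZ (log2 fold change 1.63 against vehicle, adjusted p = 1.5e-09, edgeR).

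Coactivators and corepressors of nuclear receptors moved in both directions. Among 13 coactivators, 7 were higher and 4 lower with MIZ than with vehicle (median log2 fold change 0.14), where 35.8% and 35.0% of all genes were. That most of them passed is near the 70.8% of all genes. Values include log2 fold changes of 0.98 for Med14, a Mediator subunit, 0.82 for Ncoa3 and 0.57 for Carm1, an arginine methyltransferase. Ncoa1, a p160 coactivator like Ncoa3, had -1.08, and Prdm16, the regulator of brown and beige fat, -1.14. Of 10 corepressors, 5 were lower and 3 higher (median -0.24). Nrip1, or RIP140, rose from 84.7 ± 2.53 to 232 ± 2.29 CPM on differentiation and was at 92.2 ± 3.19 with MIZ. Ncor1, a corepressor that works with histone deacetylases, had 251 ± 5.47, 400 ± 25.1 and 242 ± 5.15 CPM. Tbl1xr1, a subunit of the same complex, had a log2 fold change of -1.14 and Sin3a 0.32 between MIZ and vehicle.

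Of the other receptors that pair with RXR, 4 were higher and 4 lower of 10 tested of 13 (median -0.05), close to the shares of all genes (35.8% and 35.0%). Nr1h3, which encodes the oxysterol receptor LXRα, had 4.13 ± 0.91 CPM before differentiation, 87.2 ± 4.54 with vehicle and 18.0 ± 1.64 with MIZ. Thrb, a thyroid hormone receptor, and Rarb, a retinoic acid receptor, were also lower with MIZ than with vehicle, with log2 fold changes of -2.24 and -2.67. Vdr, the vitamin D receptor, stood at 18.3 ± 2.42, 1.98 ± 0.992 and 41.0 ± 6.05 CPM, a log2 fold change of 4.28 between MIZ and vehicle (standard error 0.276, adjusted p = 1.28e-06, edgeR). Rarg, another retinoic acid receptor, had a log2 fold change of 1.02.
Of 16 factors tested of 17 that work with PGC-1 coactivators, 11 were lower and 1 higher with MIZ than with vehicle (median log2 fold change -0.58). Of all genes, 35.0% were lower and 35.8% higher, and 70.8% passed in either direction. Esrra, the ERRα receptor through which PGC-1 coactivators act on mitochondrial genes, rose from 29.7 ± 0.935 to 121 ± 2.78 CPM on differentiation and was at 35.4 ± 0.61 with MIZ (log2 fold change -1.77, adjusted p = 2.02e-11, edgeR). Esrrg, another ERR, and Perm1, a muscle regulator of the same pathway, were at 2.93 ± 0.255 and 3.99 ± 0.302 CPM with vehicle and at 0.0605 ± 0.00692 and 0.0574 ± 0.0499 with MIZ. Mef2c, a MADS-box factor, was the 1 that was higher than with vehicle (log2 fold change 1.19; 2 factors were higher with upper quartile normalization or without vehicle replicate 1), though it stood at 57.8 ± 5.05 CPM before differentiation and 8.72 ± 0.56 with MIZ.

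Among genes that act upstream of Pparg, most activators were lower and most repressors higher with MIZ than with vehicle. Of 19 activators of its transcription, 14 were lower and 4 higher than with vehicle (median log2 fold change -0.58), and of 8 repressors 6 were higher and 2 lower (median 1.18). Over all genes tested, 35.0% were lower and 35.8% higher, with a median of 0.02. Against undifferentiated cells, 10 activators were higher and 4 lower with MIZ (median 0.14), and 3 repressors were higher and 2 lower (median -0.03). In that comparison 33.7% of all genes were higher and 33.2% lower. Cebpa, which maintains Pparg in a shared loop, had 57.0 ± 0.792 CPM before differentiation, 566 ± 37.3 with vehicle and 79.0 ± 2.52 with MIZ (log2 fold change -2.84, standard error 0.0555). Zfp423, a determinant of preadipocytes, and Srebf1, the lipogenic factor SREBP1, had log2 fold changes of -2.64 and -2.39. The exceptions Klf4 and Klf5 had 1.30 and 1.12. Among the repressors, Zfp521, which antagonizes adipogenic commitment, was at 175 ± 1.66, 10.1 ± 0.727 and 73.7 ± 6.79 CPM in undifferentiated, vehicle and MIZ cells. Gata2, which holds preadipocytes undifferentiated, was at 6.85 ± 0.274, 0.875 ± 0.156 and 6.73 ± 0.322 CPM. Hes1, a Notch target, had a log2 fold change of 1.47 between MIZ and vehicle, and Klf2 and the stress factor Ddit3 both had -0.77.
Of 10 genes tested of 14 for ligand making and delivery, 3 were higher, 2 lower and 5 did not pass (median log2 fold change 0.18 between MIZ and vehicle). Over all genes, 35.8% were higher and 35.0% lower. Fabp5, a carrier that hands fatty acids to PPARδ, went from 206 ± 10.5 to 767 ± 90.0 CPM on differentiation and to 69.4 ± 5.78 with MIZ, and Fabp3 had a log2 fold change of -3.96. The retinoic acid binding protein gene Crabp1 was higher with MIZ than with vehicle, with a log2 fold change of 2.94, as was Cyp26b1, which degrades retinoic acid (0.91). Among the genes named from these lists, several overlap other annotated genes, which may have affected their counts. They are Lipe, Cebpa, Srebf1, Esrra, Nr1h3, Rarb, Ncoa1, Ncoa3, Carm1, Prdm16, Ncor1, Sin3a, Ddit3 and Fabp3.

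**Figure D5:**
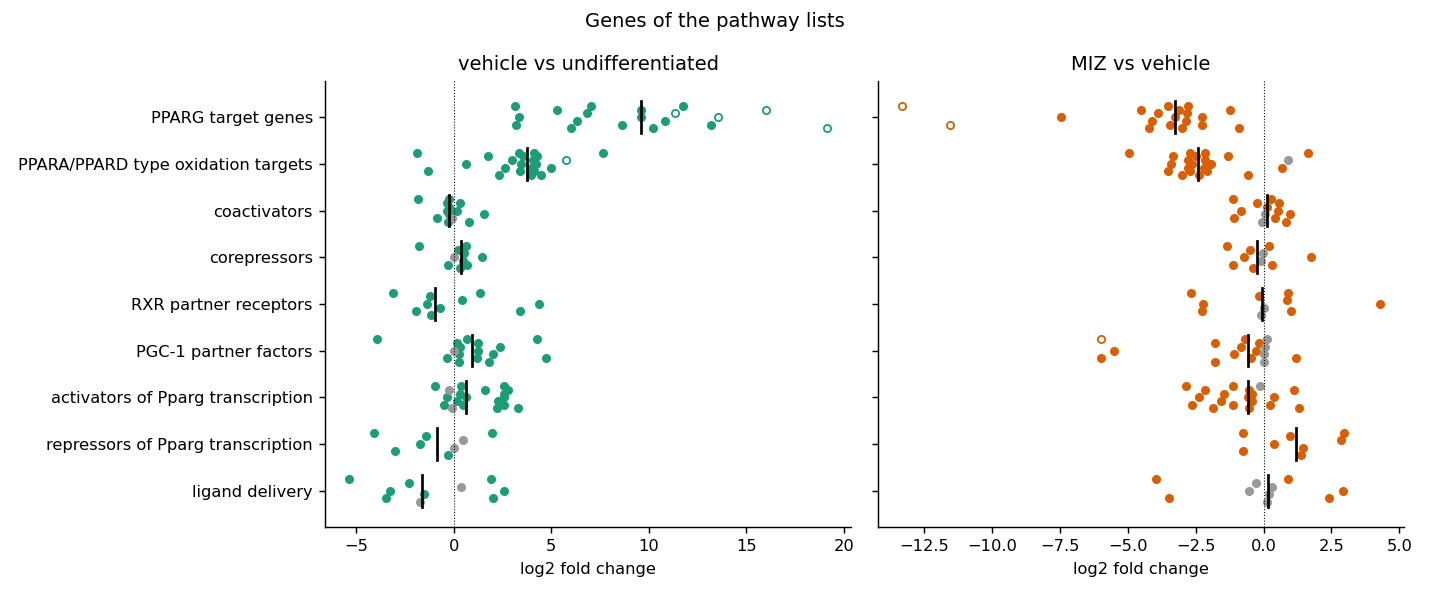
Log2 fold change of every gene tested in 9 lists, for vehicle against undifferentiated cells and for MIZ against vehicle. Coloured points passed the test, grey points did not, open points had at most 3 counts in a group so that their fitted values are no measure of fold, and black lines are medians. Targets of PPARG lie wholly to the right on the first panel (median 9.60) and wholly to the left on the second (median -3.27).

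The genes most like each receptor or coactivator over the 9 libraries, by the root mean square difference of log2 CPM after centring on its own mean, were also sought among all genes. For Pparg they included Acss3, a mitochondrial acyl-CoA synthetase (0.119), and Idh3a, a subunit of the isocitrate dehydrogenase of the TCA cycle (0.122). For Ppara they were Acacb, an acetyl-CoA carboxylase (0.210), H2-Q10 (0.273) and Itih5 (0.341). Acss2, a cytosolic acetyl-CoA synthetase (0.130), Plekhg6 (0.171) and the phosphatidate phosphatase Lpin1 (0.189) were nearest to Ppargc1b. Rxrg and Ppargc1a shared 2 of their nearest 3, the long-chain acyl-CoA synthetase Acsl1 (0.268 and 0.349) and the phosphatase inhibitor Ppp1r1a (0.300 and 0.384). The log2 CPM were taken with a prior count of 2. Rxrg had 1, 1 and 3 counts in undifferentiated cells, so its distances and correlations depend on that prior. Pprc1 was nearest to Eef1b2, a translation elongation factor (0.040), Copg1, a coat protein subunit (0.0451), and the ubiquitin ligase Rnf20 (0.0487). Within the family, the smallest distances were between Ppard and Rxrb (0.305), Rxra and Rxrb (0.377), Pparg and Ppargc1b (0.458) and Rxrg and Ppargc1a (0.493). The distance is small for any pair of genes that change little, whether or not they move together. In the same order, these pairs correlated at r = 0.738, 0.358, 0.972 and 0.986 over the 9 libraries. Pparg correlated at 0.991 with Ppard and at 0.99 with Ppara, at larger distances (1.4 and 1.08). The distances and correlations describe 3 clusters of libraries and carry no test.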

How the data were processed

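RNA was measured in 9 libraries of mouse SVF cells in 3 groups of 3, assigned from the titles in the labels. By the methods and the labels, the authors depleted ribosomal RNA, selected poly-A RNA, trimmed paired reads with Trim Galore 0.6.7, aligned them with STAR 2.7.9a to mm10 and deposited raw counts per gene without normalization. The methods name STAR and the labels HTSeq for counting, and annotation release and strand setting are not given in the sources used here.

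Symbols were given to 32158 of 32285 identifiers and 127 have none. Tested were the genes that 3 or more libraries held at 5 or more counts (17173, with 15112 left out) in edgeR 4.0.16 (R 4.3.3), in 1 quasi-likelihood fit of all 9 libraries after TMM normalization, with Benjamini-Hochberg adjustment and a threshold of 0.05. The biological coefficient of variation was 0.0806, and the fit was tested on simulated data. CPM use TMM library sizes, and lengths are the union of exons of GENCODE M21. Shares were compared by an exact two-sided permutation test. Motifs were searched in RefSeq windows of 250 bases. Precision rests on 3 libraries a group, and intervals on counts cover counting error only. Same-numbered libraries did not deviate together.

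The members and the gene lists were chosen with earlier results of these data known. Named from each list are up to 3 genes with the largest absolute log2 fold change between MIZ and vehicle in the direction with more genes called and up to 2 in the other, among genes called whose mean reached 1 CPM in some group, and for members the 3 genes nearest in log2 CPM. Some genes that this rule names are not reported here. Alternatives were other normalizations and filters, DESeq2 1.42.0, only the 6 libraries compared, a replicate block, no mitochondrially encoded genes, each library left out, and other gene lengths. The ratio of sums, the reading of the alternatives for genes of the lists and the counting intervals were added after the data were seen.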

Additional observations from a re-analysis of the deposited data

How the results depend on the processing

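All 27 log2 fold changes of the 9 genes kept their direction and their side of the threshold in each of 17 other fits (459 values), and the counts of members called stayed at 8 lower and 1 higher between MIZ and vehicle and at 7 higher and 2 lower in both other comparisons. Leaving out each library in turn gave 11262 to 12270 genes called between MIZ and vehicle. Replicate numbers are shared between groups, but the deviations of same-numbered libraries from their group means correlated at only -0.0447 to 0.063. No large shared effect of a number was thus seen, and the labels do not say whether same-numbered libraries share an animal. With the replicate block 11996 genes passed between MIZ and vehicle, against 12158 without it, and it moved no call of a member.

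Shares depend on the gene length used. With coding length or no length in place of exon length, the differences in share between MIZ and vehicle were -24.5 and -24.7 percentage points for Pparg (-17.8 with exon length), 44.4 and 44.1 for Ppard (35.9), 8.61 and 8.5 for Rxra (11.2), -2.92 and -3.06 for Rxrb (-0.757), -5.7 and -5.44 for Rxrg (-10.5), -26.3 and -23.0 for Ppargc1a (-16.4) and -37.3 and -40.5 for Ppargc1b (-48.5), and with coding length -19.9 for Ppara (-18.1). With coding length Ppard led the PPAR family with MIZ (73.4% against 24.5% for Pparg). Of the counts over lists under the alternatives, 905 stayed within 1.5 times and 13 moved further, each a count of 5 or fewer. Depth limits the values that rest on a few counts, such as Rxrg before differentiation and Cidea and Ucp1 with MIZ.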
